A study of Homo sapiens with 10 samples.

Results

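The lysosomal hydrolases and the TFEB family were examined in PC3 cells, a line from a bone metastasis of a human prostate carcinoma, which were grown with or without human bone marrow adipocytes. The group was a list of 37 gene symbols looked up among the 60558 genes of each table, and all 37 were found. They comprised 3 transcription factors of the MiT-TFE family, 11 cysteine cathepsins and legumain, 4 other proteases and thioesterases, 10 glycosidases, sulfatases and a lipase, 2 precursors that are cut into smaller peptides and 7 membrane proteins. Messenger RNA was sequenced in 10 libraries. PC3 cells had been cocultivated with the adipocytes for 3 days in 5 of them (cocultivated), and PC3 cells without adipocytes gave the other 5 (non-cocultivated). The labels give both groups the genotype WT and no drug, transgene or sorting step. Each of the batch numbers 1 to 5 given by the labels was held by 1 library of each group, and a library is called by its group and this number. PC3 is a single cell line, and the labels say neither whether the libraries of a group came from separate cultures nor whether the 2 cell types touched, so p-values measure the spread between these libraries.

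Lysosomes are acidic organelles in which proteins, glycans, lipids and nucleic acids are broken down. Their enzymes are made in the endoplasmic reticulum, carried to the lysosome mostly by mannose 6-phosphate receptors, and work at the low pH that a proton pump, the V-ATPase, maintains. TFEB, TFE3 and MITF are related transcription factors that bind E-boxes in the promoters of many lysosomal genes. When nutrients are plentiful, the kinase complex mTORC1 phosphorylates them and keeps them in the cytoplasm. Messenger RNA does not report where the protein is. Cancer cells can also secrete cathepsins, which then cleave matrix proteins.

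Of the 37 genes, 36 passed the filter on low counts and were tested, and 18 were higher and 8 lower in cocultivated cells by edgeR's quasi-likelihood test with a Benjamini-Hochberg adjusted p under 0.05 over all genes. Among all 15690 genes tested, the same rule called 33.6%, with 17.9% higher and 15.8% lower. The median log2 fold change, cocultivated over non-cocultivated, was 0.18 over the 36 genes and -0.01 over all genes tested. A called change of at least 1.5-fold was seen for 3 genes that rose (CTSL, TFE3 and CTSD) and 2 that fell (MITF and CTSF), and none reached 2-fold. Over all genes, 5.14% rose and 4.10% fell by at least 1.5-fold. The direction was the same within all 5 batches for 20 of the 36 genes that were higher and 9 that were lower (3751 and 3875 of the 15690 genes). The TPM values of the 5 and 5 libraries did not overlap for 9 of the 37 genes, higher in cocultivated cells, and for 6, lower, against 8.46% and 14.2% of the genes tested. The summed level of the 37 genes was 3352, 3527, 3531, 3349 and 3715 TPM, a share of the library's transcripts corrected for length, in cocultivated libraries 1 to 5, against 2939, 2932, 3019, 3043 and 3233 TPM in non-cocultivated libraries 1 to 5. With TPM in limma in place of counts, 9 of the 18 genes called higher kept the call (CD63, CTNS, CTSB, CTSD, CTSL, CTSZ, GRN, LAMP2 and TFE3) and 6 of the 7 called lower that were tested there did, since CTSH did not pass that filter. The summed TPM of the groups did not overlap, and CD63 alone made up 32.7% of the mean sum in cocultivated cells and 28.0% in non-cocultivated cells.

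The libraries held 39074949 to 51515712 expected counts each. The groups lay apart on principal component 1, which held 48.8% of the variance, and component 2 set both libraries of batch 1 apart. Without batch 1, 21 of the 37 genes were called higher and 7 lower. Calls over all genes were then 3033 higher and 2651 lower, against 2801 and 2478 with all batches. Of the 6 markers of the epithelial line, all were detected in both groups, and their summed level was 769 to 858 TPM in cocultivated libraries and 1066 to 1155 TPM in non-cocultivated ones. KRT7 went against that sum and was called higher (log2 fold change 1.03 ± 0.17, edgeR adjusted p 5.26e-04), while the other 5 were called lower. Markers of other cell types were read because macrophages express lysosomal genes strongly and the cultures held adipocytes. The 12 macrophage markers summed to 0.70 to 1.49 TPM in cocultivated libraries and 2.01 to 4.20 TPM in non-cocultivated ones, and TYROBP, C1QA, C1QB, CD163 and AIF1 were listed at 0 in all 10 libraries. LYZ was the only 1 of the 12 that was tested, and averaged 0.59 TPM in cocultivated and 2.35 TPM in non-cocultivated cells. The 10 adipocyte markers summed to 327 to 568 TPM in cocultivated libraries and 168 to 227 TPM in non-cocultivated ones. That sum was mostly FABP4, a fatty acid binding protein that averaged 339 TPM in cocultivated and 66.7 TPM in non-cocultivated cells, and PPARG, a receptor of fatty acids that averaged 74.9 TPM in cocultivated and 112 TPM in non-cocultivated cells. The defining adipocyte genes ADIPOQ and LEP did not exceed 0.01 TPM in any library of either group, and CIDEA was listed at 0 throughout. CIDEC averaged 3.05 TPM in cocultivated and 5.90 TPM in non-cocultivated cells and was called lower (edgeR adjusted p 0.00585). PLIN1, at 0.14 TPM in cocultivated and 0.15 TPM in non-cocultivated cells, was not called. AQP7 (0.22 TPM in cocultivated, 0.066 TPM in non-cocultivated cells), LPL (0.022 and 0.028 TPM) and GPD1 (0.036 and 0.058 TPM) were not tested. The summed markers of osteoclasts (4.31 to 6.14 TPM in cocultivated libraries, 6.46 to 8.54 TPM in non-cocultivated ones), marrow stromal cells (2.13 to 2.80 TPM in cocultivated, 5.19 to 6.48 TPM in non-cocultivated libraries) and endothelial cells (4.68 to 7.32 TPM in cocultivated, 8.10 to 12.3 TPM in non-cocultivated libraries) were low and lower in cocultivated libraries. The osteoclast sum was mostly TNFRSF11A, which averaged 5.16 TPM in cocultivated and 7.06 TPM in non-cocultivated cells. Among the endothelial markers, KDR was called lower (log2 fold change -1.23 ± 0.18) and TEK higher (0.86 ± 0.14), while PECAM1 was not called. Of the 6 marrow stromal markers tested, 4 were called lower and 2 were not called. The part that these marker differences and the higher FABP4 have in the results for the lysosomal genes was not tested. In bulk RNA, a change in the share of cells and a change in RNA per cell cannot be told apart.

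**Figure D1:**
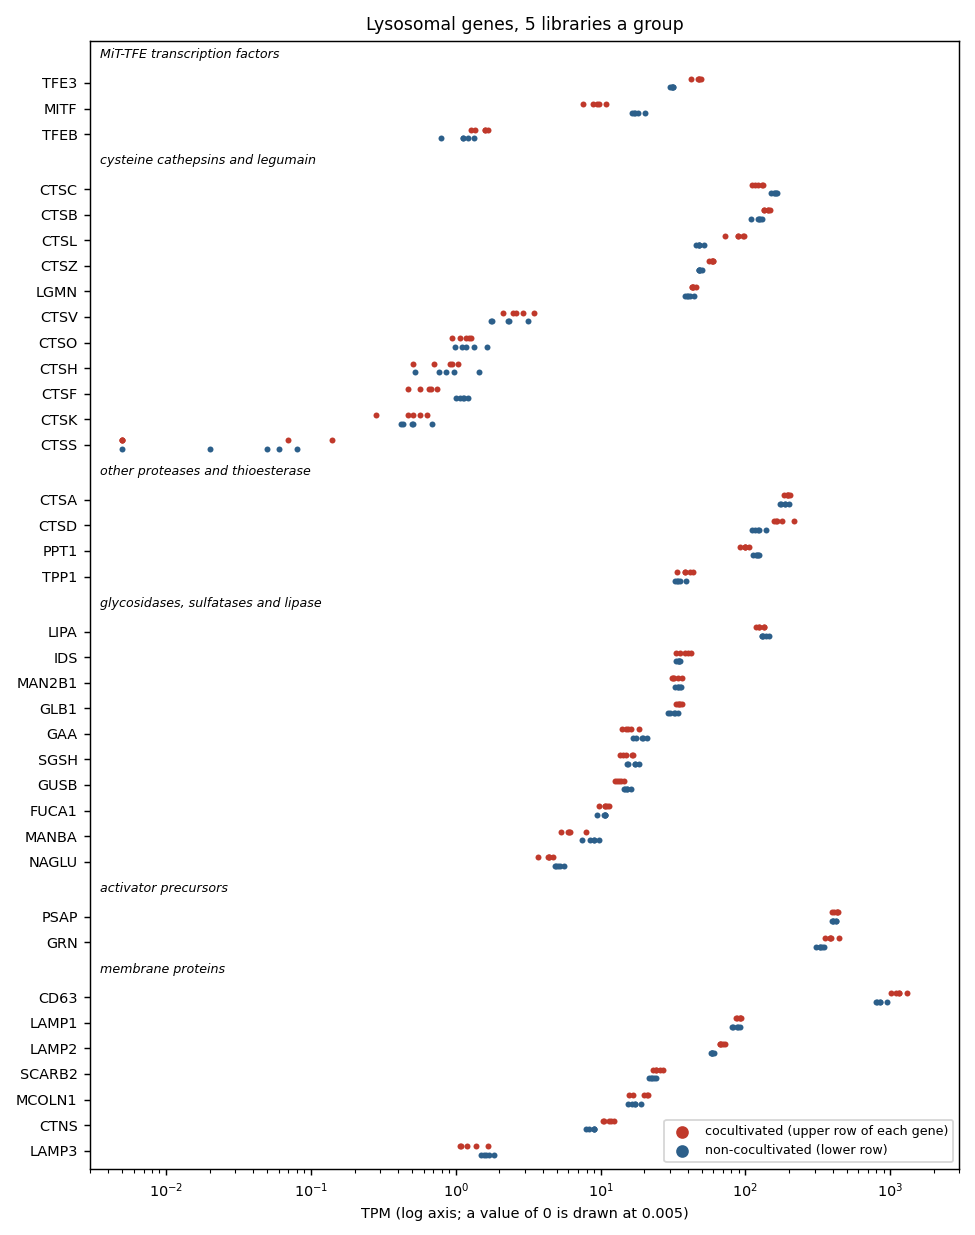
Level of each of the 37 genes in TPM on a log axis, by role, with 1 point per library (cocultivated libraries in the upper row of each gene, non-cocultivated ones in the lower row). Levels run from CTSS near 0 to CD63 near 1000 TPM, and 9 genes averaged 100 TPM or more.

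The MiT-TFE factors changed in opposite directions: TFE3 and TFEB were higher and MITF was lower in cocultivated cells. TFE3 (ENSG00000068323), the factor of this family with the highest level here, was at 48.1, 47.7, 49.4, 42.4 and 46.7 TPM in cocultivated libraries 1 to 5, against 31.8, 30.2, 31.1, 31.6 and 31.1 TPM in non-cocultivated libraries 1 to 5. Every cocultivated library lay above every non-cocultivated one, and the log2 fold change was 0.66 ± 0.05 (SE, n = 5 and 5; edgeR adjusted p 3.33e-07). TFEB (ENSG00000112561), the best known regulator of lysosome formation, was scarce, at 1.58, 1.36, 1.66, 1.59 and 1.27 TPM in cocultivated libraries against 1.33, 1.22, 1.13, 1.12 and 0.79 TPM in non-cocultivated ones. The groups overlapped, since cocultivated library 5 lay below non-cocultivated library 1, although TFEB was higher within each of the 5 batches. Its log2 fold change was 0.52 ± 0.15 (edgeR adjusted p 0.0184) and ranged from 0.10 to 1.08 within batches. TFEB lost the call without batch 3 (adjusted p 0.0634) and without batch 4 (adjusted p 0.0659), as well as in limma on log2 TPM (adjusted p 0.0564 with a pseudocount of 1).

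MITF (ENSG00000187098), known best as the master regulator of pigment cells, was at 9.40, 8.85, 9.78, 10.9 and 7.54 TPM in cocultivated libraries and 20.2, 17.1, 17.1, 18.2 and 16.4 TPM in non-cocultivated ones. The groups were well apart, with a log2 fold change of -0.84 ± 0.07 (edgeR adjusted p 2.46e-06), and the within-batch values lay between -1.05 and -0.66. The fourth member of the family, TFEC, was scarce and went the same way as MITF, at 0.62 ± 0.14 TPM in cocultivated cells and 1.45 ± 0.46 TPM in non-cocultivated cells (SD, n = 5 each; log2 fold change -1.41 ± 0.17, edgeR adjusted p 2.84e-05). TFE3 made up 80.4 ± 2.47% of the summed TPM of the 4 genes in cocultivated cells and 60.6 ± 2.10% in non-cocultivated cells, while MITF made up 15.97 ± 2.27% in cocultivated cells and 34.5 ± 1.29% in non-cocultivated cells (SD, n = 5 each). Of the pigment genes that MITF drives in melanocytes, 1 of 6 passed the filter on low counts: PMEL, with a log2 fold change of -0.08 ± 0.24 (edgeR adjusted p 0.829), and TYR was listed at 0 in all libraries. PMEL overlaps CDK2 on the opposite strand over 2.28% of its exon bases in GENCODE v29, and CDK2 had 21210% of the counts of PMEL. The strand setting of the counting is not given, so the value of PMEL is uncertain.

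**Figure D2:**
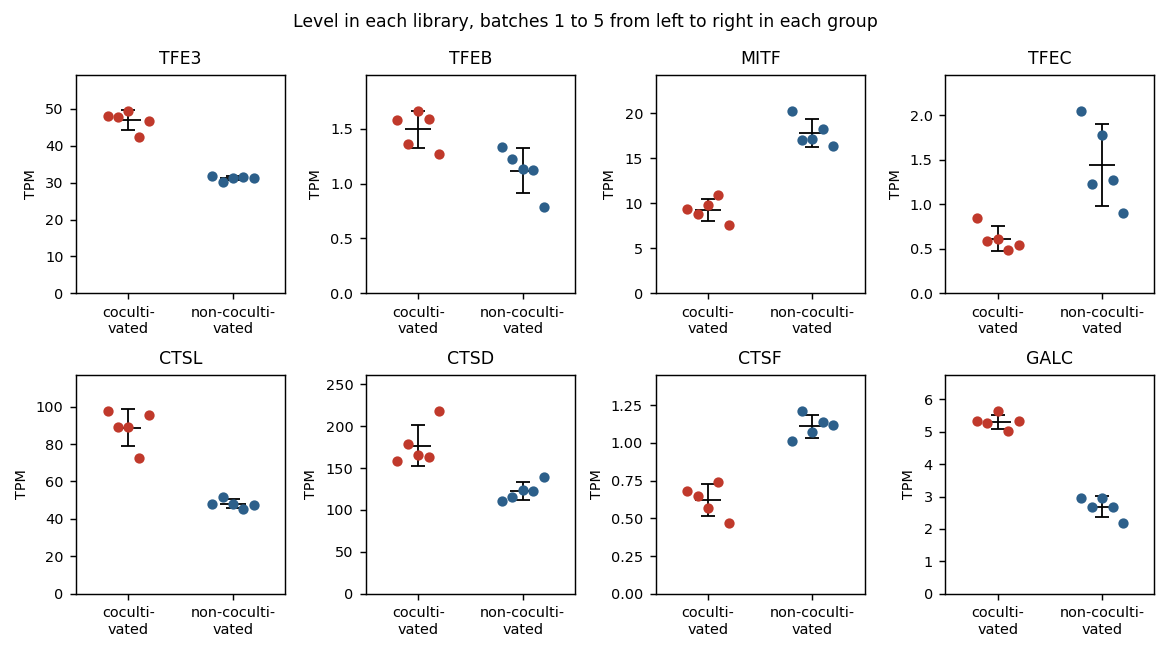
Level in TPM (linear axis from 0) of the MiT-TFE factors TFE3, TFEB, MITF and TFEC, of the cathepsins CTSL, CTSD and CTSF, and of GALC, with cocultivated libraries left and non-cocultivated libraries right; bars give mean ± SD of 5 libraries. The groups are apart for TFE3, MITF, TFEC, CTSL, CTSD, CTSF and GALC, and overlap for TFEB.

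MiT-TFE factors bind the E-box core CACGTG, and lysosomal promoters often hold its longer form GTCACGTG, so the promoters were searched for both on both strands. Every match to the longer motif is also a match to the core. RefSeq windows from 250 bases before to 50 bases after the transcription start (GRCh38.p14) were on hand for 26 of the 37 genes. The core was present in 7 of these 26 genes (26.9%), against 10.9% of 15843 protein-coding genes, and the longer form in 5 (19.2%), against 4.07%. The 7 genes were CTSD, CD63 and MCOLN1, which rose, CTSF and GAA, which fell, and CTSA and LAMP1, which were not called. A core was thus found in 3 of the 14 genes with a window that rose, 2 of the 6 that fell and 2 of the 6 that were not called. CD63 had the core in 1 of its 8 windows. No core lay in the windows of CTSL, TFE3, TFEB or MITF. The cores with 7 bases on each side are shown for genes of each direction, with the core in capitals and the distance of its first base from the transcription start in bases.
CTSD, rose, at -47: ccgcgccCACGTGaccggtc
CD63, rose, at -180: taggggcCACGTGgccctgg
MCOLN1, rose, at -41: aggcggtCACGTGaggggct
MCOLN1, rose, at -14: accgggtCACGTGaccgagg
CTSF, fell, at -123: taacaagCACGTGatagagg
CTSF, fell, at -51: cgcgcccCACGTGcctcctg
GAA, fell, at -76: gccgcgtCACGTGacccacc
GAA, fell, at -31: cgccggtCACGTGacccgcc
CTSA, not called, at -42: agactgtCACGTGgcgccgg
CTSA, not called, at -25: cggagttCACGTGactcgta

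Whole windows are shown for a gene that rose, a gene that fell and the gene with the most cores, LAMP1, which held 6 and was not called. Each reads 5′ to 3′ on the gene's own strand with the cores, and the whole of any longer match, in capitals. The CTSD window is chr11:1763878-1764177 on the minus strand, the CTSF window chr11:66568557-66568856 on the minus strand, and the LAMP1 window chr13:113296989-113297288 on the plus strand.
CTSD: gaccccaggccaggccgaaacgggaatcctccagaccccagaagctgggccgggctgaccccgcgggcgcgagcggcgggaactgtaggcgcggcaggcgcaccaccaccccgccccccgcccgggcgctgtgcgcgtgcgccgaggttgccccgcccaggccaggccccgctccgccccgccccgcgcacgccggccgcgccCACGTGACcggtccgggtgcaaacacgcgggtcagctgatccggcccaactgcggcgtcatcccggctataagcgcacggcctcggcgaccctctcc
CTSF: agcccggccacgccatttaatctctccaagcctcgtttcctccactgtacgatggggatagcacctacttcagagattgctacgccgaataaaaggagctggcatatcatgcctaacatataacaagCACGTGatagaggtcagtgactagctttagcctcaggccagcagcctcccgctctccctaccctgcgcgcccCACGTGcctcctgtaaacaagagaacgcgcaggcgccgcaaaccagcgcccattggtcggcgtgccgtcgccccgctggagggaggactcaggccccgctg
LAMP1: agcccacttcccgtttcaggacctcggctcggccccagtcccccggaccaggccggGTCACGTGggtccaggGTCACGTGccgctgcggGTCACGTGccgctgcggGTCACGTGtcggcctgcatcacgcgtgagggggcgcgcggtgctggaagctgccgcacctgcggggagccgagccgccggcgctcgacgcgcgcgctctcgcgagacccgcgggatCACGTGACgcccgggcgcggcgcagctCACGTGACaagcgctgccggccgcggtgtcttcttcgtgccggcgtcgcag

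These matches describe the sequences. Genes with a core were found among those that rose, those that fell and those that were not called, and binding was not measured.

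Among the cysteine cathepsins and legumain, 5 of the 10 genes tested rose, 3 fell and 2 were not called. Among all genes tested, 17.9% rose and 15.8% fell. The largest increase of all 36 genes was that of CTSL (ENSG00000135047), cathepsin L, an endopeptidase that works in lysosomes and can be secreted. CTSL was at 97.5, 89.4, 88.8, 72.3 and 95.7 TPM in cocultivated libraries 1 to 5, against 48.1, 51.6, 48.01, 45.3 and 47.5 TPM in non-cocultivated libraries 1 to 5. The lowest cocultivated library, of batch 4, still lay above every non-cocultivated one, and the log2 fold change was 0.94 ± 0.08 (edgeR adjusted p 1.09e-06), which is 1.92-fold. CTSV (cathepsin V), the closest human relative of CTSL, was at 2.72 ± 0.50 TPM in cocultivated and 2.26 ± 0.56 TPM in non-cocultivated cells (SD, n = 5 each), a log2 fold change of 0.29 ± 0.09 (edgeR adjusted p 0.0196). Its groups overlapped, and it was not called when batch 2, 3 or 4 or non-cocultivated library 4 was left out. Nor was CTSV called in limma on log2 TPM (adjusted p 0.264 with a pseudocount of 1). No 75-base stretch of the annotated CTSL or CTSV transcripts occurs in another gene, so a read of that length belongs to 1 of the 2 genes.

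CTSZ (cathepsin Z), a carboxypeptidase, was at 58.7 ± 1.45 TPM in cocultivated and 48.4 ± 0.97 TPM in non-cocultivated cells (SD, n = 5 each), with the groups apart and a log2 fold change of 0.36 ± 0.04 (edgeR adjusted p 3.76e-05). CTSB (cathepsin B), an abundant protease with both endopeptidase and carboxypeptidase activity, was at 141 ± 5.97 TPM in cocultivated and 122 ± 7.79 TPM in non-cocultivated cells (SD, n = 5 each), a log2 fold change of 0.27 ± 0.07 (edgeR adjusted p 0.00666), also with the groups apart. LGMN (legumain), which cuts after asparagine and trims cathepsins to their mature forms, was at 43.7 ± 1.154 TPM in cocultivated and 40.7 ± 2.45 TPM in non-cocultivated cells (SD, n = 5 each), a log2 fold change of 0.19 ± 0.04 (edgeR adjusted p 0.00258). The TPM groups of LGMN overlapped, and it was not called in limma on log2 TPM (adjusted p 0.114 with a pseudocount of 1).

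CTSC (cathepsin C), the dipeptidyl peptidase that activates granule serine proteases, fell. It was at 117, 122, 129.7, 132 and 111 TPM in cocultivated libraries and 149.9, 165, 158, 161 and 163 TPM in non-cocultivated ones. The groups were apart, at a log2 fold change of -0.36 ± 0.06 (edgeR adjusted p 3.52e-04). Among the cysteine cathepsins and legumain, CTSB had the highest mean TPM in cocultivated cells and CTSC in non-cocultivated cells. CTSF (cathepsin F) was scarce, at 0.68, 0.65, 0.57, 0.74 and 0.47 TPM in cocultivated libraries against 1.01, 1.21, 1.07, 1.14 and 1.12 TPM in non-cocultivated ones. No library of one group lay within the range of the other, and the log2 fold change was -0.76 ± 0.14 (edgeR adjusted p 0.00114).

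CTSH (cathepsin H), an aminopeptidase, was scarce, with 16, 19, 12, 26 and 23 counts in cocultivated libraries against 31, 36, 23, 37 and 29 counts in non-cocultivated ones. Its levels were 0.91, 0.94, 0.51, 1.04 and 0.71 TPM in cocultivated libraries and 0.98, 0.86, 0.77, 1.45 and 0.52 TPM in non-cocultivated ones, and on this scale, which corrects for transcript length, the groups overlapped widely. Its log2 fold change of -0.57 ± 0.21 passed narrowly (edgeR adjusted p 0.0498) and did not pass in 16 of 21 alternatives that gave a test.

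CTSK (cathepsin K), the collagen-degrading enzyme of osteoclasts, was not called, at 0.49 ± 0.13 TPM in cocultivated and 0.51 ± 0.11 TPM in non-cocultivated cells (SD, n = 5 each; log2 fold change 0.19 ± 0.21). CTSO (cathepsin O) was not called either, at 0.94 to 1.28 TPM in cocultivated libraries and 0.99 to 1.65 TPM in non-cocultivated ones (log2 fold change -0.06 ± 0.13). CTSS (cathepsin S), an enzyme of antigen-presenting cells, did not pass the filter, with 3, 0, 1, 0 and 0 counts in cocultivated libraries and 2, 4, 2, 0 and 4 counts in non-cocultivated ones, at or about the 3 counts that a count of 0 allows. Expression of CTSS was therefore not detectable above that limit in most libraries, and no fold is given.

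Of the 4 other proteases and thioesterases, 2 rose, 1 fell and 1 was not called, beside 17.9% higher and 15.8% lower over all genes tested. CTSD (ENSG00000117984), cathepsin D, the main aspartic protease of lysosomes, was at 159, 179, 166, 163 and 218 TPM in cocultivated libraries and 111, 116, 123, 123 and 139.7 TPM in non-cocultivated ones. Cocultivated library 5 was the highest, all cocultivated libraries lay above all non-cocultivated ones, and the log2 fold change was 0.62 ± 0.11 (edgeR adjusted p 9.65e-04). A gene on the same strand, AC068580.4, shares 41.7% of the exon bases of CTSD in GENCODE v29, but it took only 0.80% as many counts as CTSD. TPP1, a peptidase that removes tripeptides, was at 38.95 ± 3.59 TPM in cocultivated and 34.97 ± 2.56 TPM in non-cocultivated cells (SD, n = 5 each; log2 fold change 0.24 ± 0.07, edgeR adjusted p 0.0185). Its groups overlapped, and it was not called without batch 2 or with library totals in place of TMM (edgeR adjusted p 0.0505). Nor was TPP1 called in limma on log2 TPM (adjusted p 0.116 with a pseudocount of 1). CTSA, the carboxypeptidase that protects beta-galactosidase and neuraminidase, was at 193, 197, 198, 186 and 203 TPM in cocultivated libraries and 175, 176, 187, 188 and 200.1 TPM in non-cocultivated ones. Its groups overlapped and it was not called (log2 fold change 0.15 ± 0.06, edgeR adjusted p 0.0863). With the batch as a replicate block it passed (adjusted p 0.00629).

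PPT1, the thioesterase that removes palmitate from proteins, was lower, at 98.96 ± 5.00 TPM in cocultivated and 119.5 ± 4.56 TPM in non-cocultivated cells (SD, n = 5 each), with the groups apart and a log2 fold change of -0.21 ± 0.05 (edgeR adjusted p 0.00989). The end of PPT1 overlaps CAP1 on the opposite strand over 23.4% of its exon bases. CAP1 was higher in cocultivated cells, at 249 TPM against 207 TPM in non-cocultivated cells, and had 248% of the counts of PPT1. The kit keeps the strand, but no source used here gives the strand setting of the counting, and the value of PPT1 is uncertain. It was also not called without batch 3.

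Of the 10 glycosidases, sulfatases and lipase, 2 rose, 2 fell and 6 were not called. These shares were near the 17.9% higher and 15.8% lower over all genes tested. The median log2 fold change was -0.03, against -0.01 over all genes tested. GLB1, the lysosomal beta-galactosidase, was at 34.8 ± 1.29 TPM in cocultivated and 31.7 ± 2.05 TPM in non-cocultivated cells (SD, n = 5 each; log2 fold change 0.26 ± 0.04, edgeR adjusted p 7.07e-04). IDS, which removes sulfate from iduronate residues of dermatan and heparan sulfate, was at 37.8 ± 3.71 TPM in cocultivated and 34.5 ± 0.89 TPM in non-cocultivated cells (SD, n = 5 each; log2 fold change 0.24 ± 0.04, edgeR adjusted p 2.38e-04). The TPM groups overlapped for both. Neither was called in limma on log2 TPM with a pseudocount of 1 (adjusted p 0.0643 for GLB1 and 0.14 for IDS).

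MANBA, the beta-mannosidase, fell. It was at 7.88, 6.18, 6.04, 5.92 and 5.32 TPM in cocultivated libraries and 9.77, 8.96, 9.03, 8.43 and 7.45 TPM in non-cocultivated ones, and cocultivated library 1 reached into the range of the other group. Its log2 fold change was -0.47 ± 0.07 (edgeR adjusted p 2.58e-04). GAA, the acid alpha-glucosidase that degrades glycogen, was at 15.8 ± 1.65 TPM in cocultivated and 18.8 ± 1.602 TPM in non-cocultivated cells (SD, n = 5 each; log2 fold change -0.19 ± 0.06, edgeR adjusted p 0.0394). GAA was lower in 4 of 5 batches, and its call was lost when any 1 of batches 1 to 4 was left out.

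Not called, by log2 fold change, were GUSB (beta-glucuronidase; -0.05 ± 0.06), MAN2B1 (alpha-mannosidase; 0.03 ± 0.06), FUCA1 (alpha-fucosidase; 0.11 ± 0.07), NAGLU (-0.20 ± 0.09) and SGSH (-0.12 ± 0.05), both of the heparan sulfate pathway, and LIPA (-0.01 ± 0.06), the acid lipase that frees fatty acids and cholesterol from lipids taken up by the cell. LIPA had the highest TPM of these 10 genes, at 118, 125, 134, 135 and 125 TPM in cocultivated libraries and 132, 131, 138, 131 and 146 TPM in non-cocultivated ones, and its groups overlapped. In counts, the interval of the estimate ± 2 SE for LIPA ran from -0.14 to 0.11 on the log2 scale. NAGLU and SGSH passed as lower with the replicate block (adjusted p 0.0477 and 0.0286). GUSB was at 12.7 to 14.4 TPM in cocultivated libraries and 14.5 to 16.2 TPM in non-cocultivated ones. NAGLU was at 3.71 to 4.70 TPM in cocultivated and 4.85 to 5.63 TPM in non-cocultivated libraries. For both the TPM groups were apart, lower in cocultivated cells, although the count test did not call them. The groups overlapped for MAN2B1 (31.3 to 36.4 TPM in cocultivated, 32.8 to 35.6 TPM in non-cocultivated libraries), FUCA1 (9.77 to 11.3 TPM in cocultivated, 9.49 to 10.8 TPM in non-cocultivated libraries) and SGSH (13.7 to 16.7 TPM in cocultivated, 15.3 to 18.5 TPM in non-cocultivated libraries).

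Both precursors, labelled activator precursors in the figures, rose, beside 17.9% of all genes tested. GRN, the precursor of granulins, was at 383, 389, 382, 355 and 441 TPM in cocultivated libraries and 326, 308, 329, 337 and 351 TPM in non-cocultivated ones. The groups were apart, with a log2 fold change of 0.33 ± 0.08 (edgeR adjusted p 0.00454). PSAP, whose product is cut into the saposins that help degrade sphingolipids, was at 429, 433, 429.7, 410.3 and 396 TPM in cocultivated libraries and 421, 399, 396, 404 and 421 TPM in non-cocultivated ones. These TPM values overlapped, although the counts gave a log2 fold change of 0.18 ± 0.04 (edgeR adjusted p 0.00594). With TPM in place of counts the value was 0.04 (limma adjusted p 0.408), so the call for PSAP rests on the count scale, and it was also not called without batch 2.

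Of the 7 membrane proteins, 5 rose, 1 fell and 1 was not called (71.4% higher and 14.3% lower, against 17.9% and 15.8% of all genes tested). CD63 (ENSG00000135404), a tetraspanin of late endosomes, lysosomes and secreted vesicles, had the highest level of the 37 genes, at 1012, 1156, 1151, 1096 and 1302 TPM in cocultivated libraries and 793, 812, 844, 856 and 953 TPM in non-cocultivated ones. Each cocultivated library lay above each non-cocultivated one, and the log2 fold change was 0.51 ± 0.10 (edgeR adjusted p 0.00124). CTNS, the cystine exporter of lysosomes, was at 11.4, 10.4, 11.8, 10.6 and 12.3 TPM in cocultivated libraries and 9.07, 8.33, 9.05, 8.95 and 7.89 TPM in non-cocultivated ones, again with the groups apart (log2 fold change 0.40 ± 0.07, edgeR adjusted p 4.40e-04).

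LAMP2, a main glycoprotein of the lysosomal membrane and a receptor of chaperone-mediated autophagy, was at 68.6 ± 2.58 TPM in cocultivated and 59.04 ± 1.149 TPM in non-cocultivated cells (SD, n = 5 each), with the groups apart (log2 fold change 0.27 ± 0.04, edgeR adjusted p 9.77e-05). Its close relative LAMP1 was at 90.05 ± 2.81 TPM in cocultivated and 86.2 ± 4.27 TPM in non-cocultivated cells (SD, n = 5 each) and was not called (log2 fold change 0.14 ± 0.06, edgeR adjusted p 0.104). It was higher in 5 of 5 batches and passed with the replicate block (adjusted p 0.0116). MCOLN1, the calcium channel of the lysosomal membrane and a known TFEB target, was at 18.9 ± 2.56 TPM in cocultivated and 17.1 ± 1.33 TPM in non-cocultivated cells (SD, n = 5 each; log2 fold change 0.26 ± 0.08, edgeR adjusted p 0.022). It was not called without batch 2, without cocultivated library 2 or without non-cocultivated library 3. SCARB2, the receptor that carries glucocerebrosidase to lysosomes, was at 24.7 ± 1.51 TPM in cocultivated and 22.8 ± 0.99 TPM in non-cocultivated cells (SD, n = 5 each; log2 fold change 0.18 ± 0.03, edgeR adjusted p 0.00109). The TPM groups overlapped for MCOLN1 and SCARB2. Neither was called in limma on log2 TPM with a pseudocount of 1 (adjusted p 0.300 for MCOLN1 and 0.112 for SCARB2). LAMP3, a family member restricted to few cell types, was at 1.27 ± 0.25 TPM in cocultivated and 1.65 ± 0.14 TPM in non-cocultivated cells (SD, n = 5 each; log2 fold change -0.32 ± 0.11, edgeR adjusted p 0.0426) and did not pass in 16 of 24 alternatives.

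**Figure D3:**
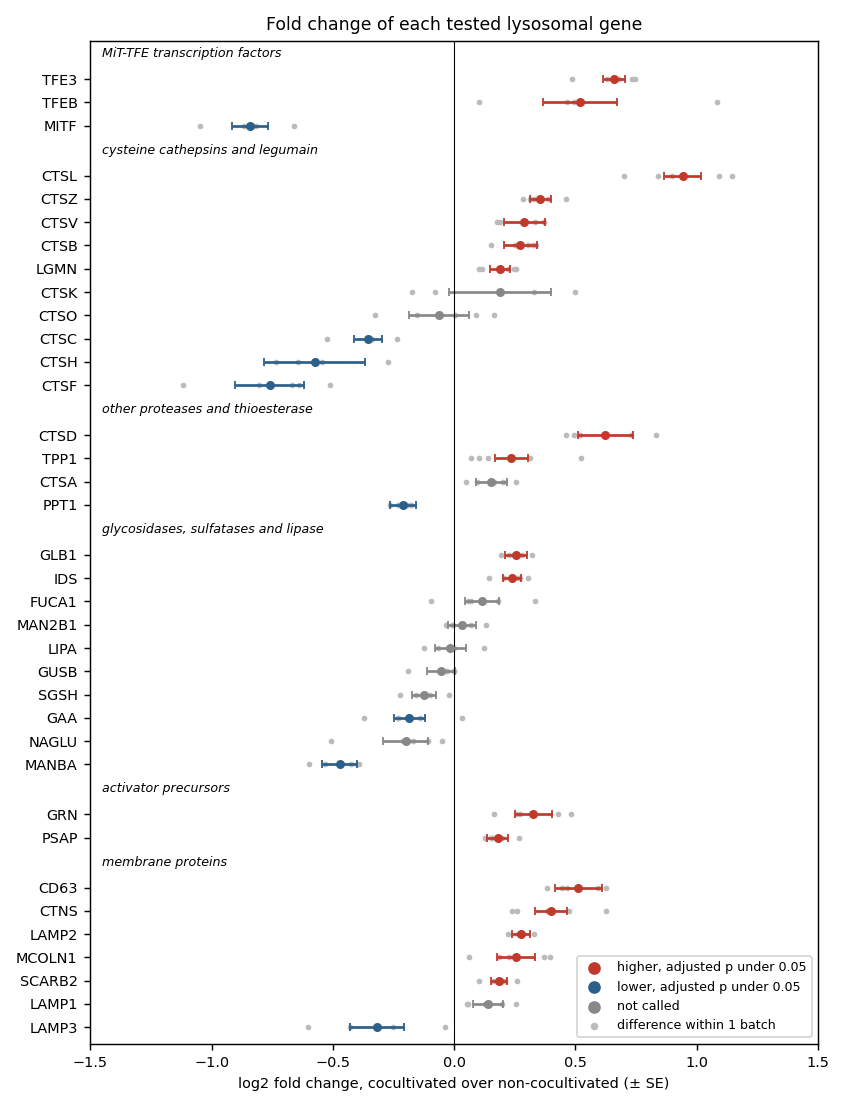
Log2 fold change, cocultivated over non-cocultivated, of the 36 genes tested (coloured points, with SE bars) and the difference within each batch (grey points), by role. CTSL, TFE3 and CTSD lie farthest to the right and MITF and CTSF farthest to the left. The glycosidases, sulfatases and lipase lie on both sides of 0, from -0.47 (MANBA) to 0.26 (GLB1).

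The remaining genes of the pathway were read from lists of 132 other genes, of which 110 were tested: 39 rose and 11 fell (35.45% and 10.0%), with a median log2 fold change of 0.09. Among all genes tested, 17.9% rose and 15.8% fell, with a median of -0.01. Other lysosomal hydrolases and their activators rose in 15 and fell in 1 of 30 genes tested. GALC, which cleaves galactosylceramide, was at 5.32, 5.26, 5.63, 5.02 and 5.33 TPM in cocultivated libraries against 2.95, 2.67, 2.95, 2.69 and 2.19 TPM in non-cocultivated ones. Its groups were far apart (log2 fold change 1.13 ± 0.07, edgeR adjusted p 8.83e-08), and this was a larger difference than for any of the 37 genes. DNASE2, the acid DNase, was at 48.8 ± 4.19 TPM in cocultivated and 35.8 ± 1.31 TPM in non-cocultivated cells (SD, n = 5 each; log2 fold change 0.54 ± 0.07, edgeR adjusted p 6.43e-05). Without batch 2 the list gave 9 genes called higher. Leaving out a library or batch also changed the number called over all genes, as given in the last section. HEXA was singled out after its values were seen: this broadly used hexosaminidase subunit was listed at no more than 0.07 TPM in any library, so it is only said here to be listed near 0.

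Among the V-ATPase subunits, 8 of 20 rose and 1 fell (40.0% and 5.0%, against 17.9% and 15.8% of all genes tested). With the replicate block 13 rose and 3 fell. That fit called more of all 15690 genes as well, 3478 higher and 3487 lower against 2801 and 2478. ATP6V1D was at 104 ± 4.57 TPM in cocultivated and 87.1 ± 2.77 TPM in non-cocultivated cells (SD, n = 5 each; log2 fold change 0.35 ± 0.05, edgeR adjusted p 1.81e-04). ATP6V0D2, a subunit typical of osteoclasts, had 57.85, 23, 15, 12 and 30 expected counts in cocultivated libraries against 0, 2, 2, 3 and 5 in non-cocultivated ones. The groups were apart (edgeR adjusted p 3.69e-04), but the level stayed at about 1 TPM or below, and a fold on so few counts is not given. Other lysosomal membrane proteins rose in 8 and fell in 3 of 22 genes (36.4% and 13.6%, against 17.9% and 15.8% of all genes tested). Among those that rose were SLC17A5, the sialic acid exporter (log2 fold change 0.49 ± 0.06, edgeR adjusted p 2.57e-05), and ATP13A2, the polyamine exporter (log2 fold change 0.47 ± 0.06, edgeR adjusted p 6.28e-05).

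Genes of mannose 6-phosphate tagging and sorting rose in 2 and fell in 2 of 13 (15.4% each), near the 17.9% and 15.8% of all genes tested. SORT1, the sorting receptor sortilin, was lower (log2 fold change -0.32 ± 0.04, edgeR adjusted p 5.97e-05) and VPS29, a retromer subunit, was higher (log2 fold change 0.23 ± 0.05, edgeR adjusted p 0.00275). Of the nutrient sensing genes that act on TFEB, 5 of 21 rose and 3 fell (23.8% and 14.3%), also near the shares over all genes tested. RPTOR, the mTORC1 subunit that binds substrates, was at 26.7 ± 0.76 TPM in cocultivated cells and 36.2 ± 1.75 TPM in non-cocultivated cells (SD, n = 5 each; log2 fold change -0.34 ± 0.04, edgeR adjusted p 5.97e-05), with the groups apart. RHEB, the GTPase that activates mTORC1, was at 178 ± 8.18 TPM in cocultivated cells and 148 ± 2.76 TPM in non-cocultivated cells (log2 fold change 0.32 ± 0.04, edgeR adjusted p 6.79e-05). Of the cystatins, which inhibit cysteine cathepsins, 2 of 9 were expressed enough to test. CSTB (cystatin B), which acts inside the cell, rose to 309 ± 25.7 TPM in cocultivated cells, against 195 ± 13.8 TPM in non-cocultivated cells (SD, n = 5 each; log2 fold change 0.74 ± 0.08, edgeR adjusted p 1.19e-05). CST3 (cystatin C), the secreted form, was not called (log2 fold change 0.03 ± 0.07).

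**Figure D4:**
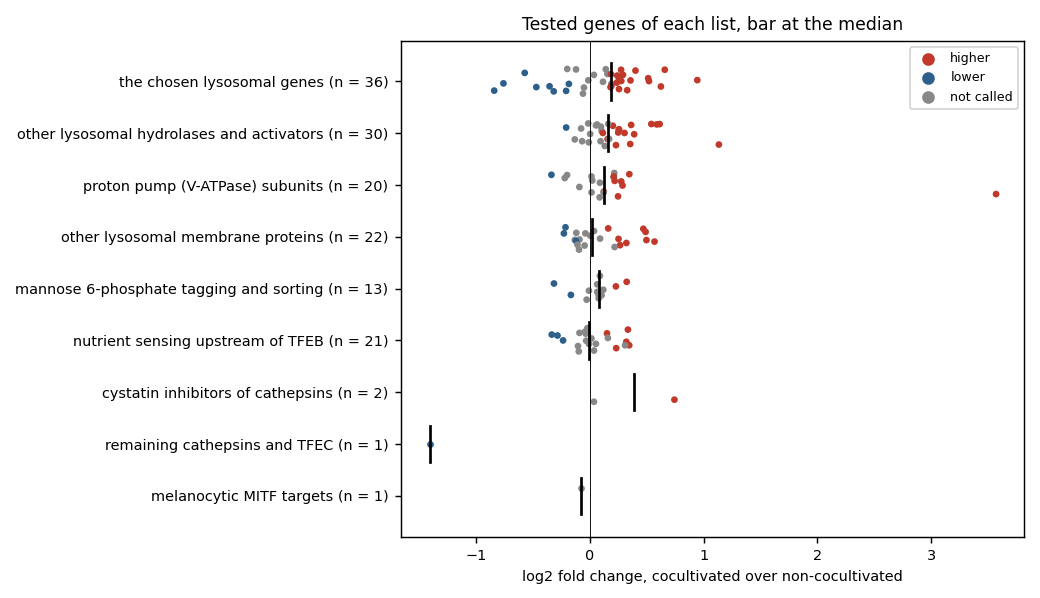
Log2 fold change, cocultivated over non-cocultivated, of every tested gene in the chosen group (top row) and in each list of other pathway genes, coloured by call, with a bar at the median. The hydrolase list lies mostly to the right of 0, the nutrient sensing list is centred near 0, and the point farthest to the right is ATP6V0D2, whose position rests on few counts.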

How the data were processed

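Gene expression was measured by mRNA sequencing in 5 cocultivated and 5 non-cocultivated libraries of PC3 cells. Per the labels' protocols, column-purified RNA (500 ng, quality number 10) went into a stranded, ligation-based mRNA kit and sequencing used a NextSeq550 with 150 cycles. The tools in the submitters' processing notes are RSEM 1.3.3, Bowtie2 2.4.4 and bcl2fastq. The sources used here give no genome build, annotation release or strand setting.

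Per the file headers, the deposited tables give an expected count for each gene, which is the number of reads assigned to it, with reads that match several genes shared out. The TPM values that the authors deposited correct those counts for effective length, per the file headers. Depth was 39074949 to 51515712 expected counts, and the limit that a count of 0 allows, 3 counts, covers counting error only. Between libraries of a group, counts differed by a chi-square of at least 4.91 per degree of freedom, so none was a duplicate.

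The test was run on expected counts rounded to whole numbers with edgeR 4.0.16 (R 4.3.3) by quasi-likelihood F test on the group, after filterByExpr (minimum count 10, minimum total 15) and TMM scaling (factors 0.953 to 1.04), with Benjamini-Hochberg adjustment over 15690 genes and a threshold of 0.05. The SE of a log2 fold change is its size divided by the square root of F. Alternatives used limma 3.58.1 on log2 TPM with pseudocounts of 1 and 0.1, limma-voom, DESeq2 1.42.0, other scalings and filters, and each library or batch left out. Libraries with the same number are paired, since the number is a batch in the labels. The main test did not use this pairing, since no methods text in the labels states a block. The fit with the batch as a replicate block is an alternative. The correlation of deviations from the group means within batches 1 to 5 was 0.329, -0.019, 0.073, 0.104 and 0.281. Cocultivated library 2 correlated more highly with a non-cocultivated library of another number. The cocultivated libraries of batches 1, 3, 4 and 5 correlated most highly with their own number. The script was checked on simulated counts.

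The 37 genes and the other lists were chosen with earlier results of these data known. All 37 are named. Values in each library are given for the 10 largest called changes with the same direction in 5 batches, the MiT-TFE factors, the 5 genes of highest mean TPM and the gene that failed the filter, and also for CTSC, LIPA and GALC. From the other lists, the 2 tested genes with the smallest p are named. Overlaps between genes were read from GENCODE v29 and promoters from RefSeq (GRCh38.p14). Protein sequences were not used here.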

Additional observations from a re-analysis of the deposited data

Results flagged for a closer look

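In the 37 genes, the 5 TPM values of each group were checked for a single library far from the rest with Dixon's test at its 95% critical value. Of 74 combinations of gene and group, 3 passed, and chance passes about 1 in 20. LGMN was at 45.72 TPM in cocultivated library 1, while the other 4 cocultivated libraries lay between 43.05 and 43.26 TPM. FUCA1 was at 9.49 TPM in non-cocultivated library 5, below the 10.58 to 10.81 TPM of the other 4. LAMP2 was at 61.02 TPM in non-cocultivated library 5, above the 58.11 to 58.94 TPM of the other 4, and still below every cocultivated library.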

How the results depend on the processing

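Calls of small changes depended on the scale of the values. In limma on log2 TPM, 9 genes were called higher with either pseudocount, against 18 in edgeR, and over all genes 1602 and 1599 were higher, against 2801; the median of all genes moved by -0.07 on the log2 scale. Library totals in place of TMM gave 17 higher, without TPP1, and 10 lower (2216 and 3555 over all genes, against 2801 and 2478). With the batch as a replicate block, 20 genes were higher and 10 lower, and all 26 calls were kept, while over all genes 3478 were higher and 3487 lower. DESeq2 gave 18 and 7 (2831 and 2598 over all genes). Leaving out 1 library or batch gave 14 to 21 genes higher and 4 to 7 lower, the lowest count of 4 without batch 3; over all genes these settings gave 2116 to 3041 higher and 1702 to 2675 lower. Called in all alternatives, with the same direction, were 9 of the 18 higher genes and 4 of the 8 lower ones (CTSC, CTSF, MANBA and MITF). The share of all called genes that kept their call in this way was not computed. Among the named genes, signs turned only in those that were not called. MAN2B1 was at -0.022 with library totals and -0.059 and -0.061 with TPM and pseudocounts of 1 and 0.1, and CST3 at -0.022, -0.0496 and -0.0497 in these settings. With libraries or batches left out, MAN2B1 ranged from -0.0064 to 0.068, CST3 from -0.013 to 0.077, CTSO from -0.12 to 0.035, LIPA from -0.051 to 0.035 and PMEL from -0.29 to 0.16. The causes were not tested. The alternatives for the other lists were added after seeing the data; counts of higher genes ranged from 6 to 13 in the V-ATPase list (13 with the replicate block), from 1 to 4 in the sorting list (4 with the replicate block, 1 with TPM and without batch 2 or batch 3), from 5 to 9 in the list of membrane proteins (5 with TPM) and from 9 to 20 in other hydrolases (9 without batch 2). Counts of lower genes ranged from 0 to 5 in the list of membrane proteins (0 without batch 2 or batch 3), from 3 to 6 in nutrient sensing, from 1 to 3 in the V-ATPase and from 0 to 1 in other hydrolases, and every named gene of these lists that was called kept its call where it was tested. Genes below about 1 TPM (CTSF, CTSH, CTSK, CTSS) are limited by depth.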
